A study of Mus musculus with 9 samples.

Results

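The creatine system of the mouse heart was followed through 4 genes. These were Ckm, which encodes the muscle creatine kinase of the cytosol, Ckmt2, which encodes the mitochondrial creatine kinase of heart and skeletal muscle, Ckb, which encodes the brain form of the cytosolic enzyme, and Slc6a8, which encodes the transporter that brings creatine into the cell. They were chosen by symbol from the 13890 genes counted in heart RNA. The rule used no measured value, but earlier results of these data were known. All 4 were among the 13364 genes that passed a filter on low counts.

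Cardiac muscle turns over its ATP quickly, and creatine kinase buffers it by moving a phosphate between ATP and creatine. The mitochondrial enzyme sits in the intermembrane space, where ATP leaves the matrix and phosphocreatine is formed. The cytosolic enzymes work near the myofibrils and ion pumps, where ATP is rebuilt from phosphocreatine. Cardiac muscle cells take up most of their creatine from the blood through Slc6a8, whereas Gatm and Gamt make creatine chiefly in kidney, pancreas and liver. The brain form is the main creatine kinase of brain and smooth muscle and one of the forms present in the heart.

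The hearts came from male NSG mice, an immunodeficient strain that accepts human cells, aged 8 weeks at surgery and examined 3 weeks later. The 9 libraries, each from a different animal, made 3 groups of 3. Sham mice (S, animals 2, 3 and 5) had surgery with saline, mice labelled as hosts of HCT116, a human colorectal cancer line injected into the spleen, made up T (animals 11, 12 and 15), and such hosts given weekly injections of ACVR2B/Fc, a soluble form of activin receptor type IIB that binds its ligands, made up A + T (animals 20, 21 and 22). The immunodeficient background and the surgery were common to all 9 animals, and the tumour was 1 cell line. No library analysed here was labelled as coming from a mouse given ACVR2B/Fc without tumour. By these labels, the comparisons set tumour hosts against sham (T vs. S) and treated hosts against untreated ones (A + T vs. T). They also ask how far treated hosts were from sham (A + T vs. S).

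One doubt about the labels precedes every result. The fold changes of the T-labelled libraries against S did not follow those that the study lists for tumour hosts, and they followed closely those it lists for ACVR2B/Fc in mice without tumour. The T group is therefore called by its label, and every direction stated for T belongs to these libraries. The A + T label was not compared with the study's list in this way.

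The libraries held 12392222 to 19732471 counts. Levels are given as CPM, counts scaled to the depth of the library, after adjustment by the trimmed mean of M values (TMM), and values are mean ± SD with n = 3 per group. Ribosomal Rn45s took 4.57% to 19.6% of the counts, with over 15% in animals 2, 15, 21 and 22. Of 10 cardiomyocyte markers all were detected in every library, and their sum was 72279 to 78702 CPM in S, 60734 to 72625 CPM in the T-labelled libraries and 54674 to 73577 CPM in A + T. Of 9 skeletal muscle markers 5 were analysed. Their sums did not overlap between groups, with 32.5 to 36.3 CPM in S, 56.3 to 71.6 CPM in the T-labelled libraries and 41.4 to 52.5 CPM in A + T. By gene, 2 of the 5 were higher and 3 were lower in T vs. S. Of 5 adipocyte markers 4 were analysed, with sums of 26.2 to 33.9 CPM in S, 44.0 to 61.7 CPM in the T-labelled libraries and 31.9 to 38.9 CPM in A + T. Airway markers, of which 2 were analysed, reached a sum of 1079 CPM in animal 22 of A + T and at most 103 CPM in the other libraries, and the sum of 4 atrial markers spread from 859 to 4551 CPM within the T-labelled libraries. In whole heart RNA, fewer cells of a type and less RNA per cell cannot be told apart.

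Both striated muscle kinases stood among the most abundant transcripts of the heart. Levels of different genes were compared on the authors' log2 values, which differ from log2 CPM by a constant per gene, as for scaling by gene length. The formula was not stated, so the ranks and per-length values rest on that reading. Ranked by the mean of these values over the 9 libraries, Ckm was at place 24 and Ckmt2 at place 32 of 13364 genes, Slc6a8 at place 668 and Ckb at place 3585. Converted to a linear scale, the per-length level in S was 1518 ± 80.4 for Ckm, 1365 ± 83.1 for Ckmt2, 72.3 ± 2.78 for Slc6a8 and 20.7 ± 0.317 for Ckb. Ckm therefore exceeded Ckb 73.2 ± 4.43 times in S. Of all counts, Ckm took 0.201%, Ckmt2 0.174%, Slc6a8 0.0323% and Ckb 0.00229%, so the counting error of Ckb, at most 8.57% in a library, was the largest of the 4.

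Between S and the T-labelled libraries, Ckb fell to 0.489 of its level and Ckmt2 to 0.706, Slc6a8 rose 1.40-fold, and Ckm did not pass the test. With edgeR's quasi-likelihood test and Benjamini-Hochberg adjustment over all genes, 3 of the 4 genes had an adjusted P-value under 0.05, against a background of 21.2% of all genes tested. In the same comparison, 3 of the 4 had no overlap between the groups, where 42.6% of all genes had none. By direction, 1 gene was higher, against 10.3% of all genes, and 2 were lower, against 11%. The study itself called genes by an unadjusted P-value under 0.05 with a change of at least 1.5-fold, and by that rule 1 of the 4 passed, Ckb, against a background of 14.2%. In A + T vs. T, 1 of the 4 passed the adjusted test, Slc6a8, which was lower, against a background of 5.88% (2.79% lower, 3.09% higher), and 2 of the 4 did not overlap, against 25.4%. For A + T vs. S, 1 of the 4 passed, Ckb, which was lower, against 8.31% (3.64% lower, 4.67% higher), and 3 of the 4 did not overlap, against 32.4%. The share of all calls that were higher depended on scaling. It was 48.3% in T vs. S (35.7% with library size only), 52.5% in A + T vs. T (71.7% with library size only, 65.5% with upper-quartile scaling and 62.6% scaled to cardiomyocyte genes) and 56.2% in A + T vs. S (77.3% scaled to cardiomyocyte genes). With the 1.5-fold rule, 0 of the 4 passed in either comparison with A + T (backgrounds 8.1% for A + T vs. T and 8.91% for A + T vs. S), and 2 had an unadjusted P-value under 0.05 in each.

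**Figure D1:**
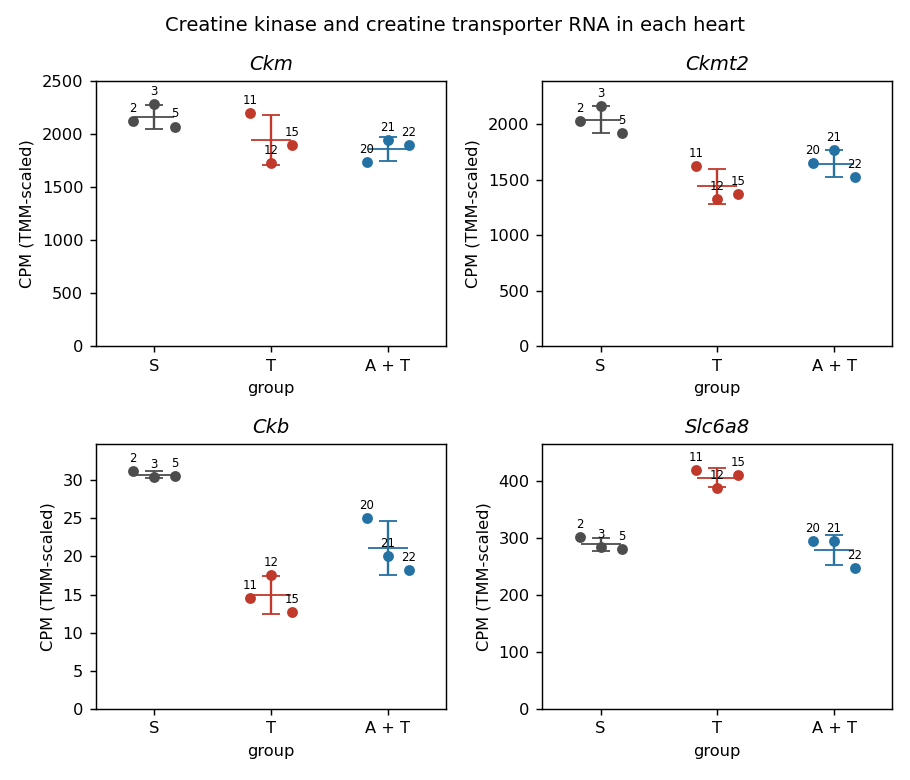
TMM-scaled CPM of Ckm, Ckmt2, Ckb and Slc6a8 in each heart, with the animal number above each point and bars for the mean and SD of 3 animals per group; every vertical axis starts at 0 and has its own scale. Ckb in S lay between 30.4 and 31.3 CPM, above all libraries of both other groups, and Slc6a8 in the T-labelled libraries lay between 388 and 420 CPM, above all others.

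Ckm, the cytosolic kinase bound in part to the sarcomere, had 38420, 45103 and 28675 counts in S, or 2123, 2288 and 2073 CPM in animals 2, 3 and 5. The T-labelled libraries had 35478, 29157 and 20322 counts, or 2197, 1733 and 1901 CPM in animals 11, 12 and 15. A + T had 28098, 27162 and 30779 counts, or 1737, 1949 and 1896 CPM in animals 20, 21 and 22. Animal 11 was as high as the sham mice, so S and T overlapped, whereas every A + T heart was below every sham heart. The group means were 2162 ± 112 CPM in S, 1943 ± 235 CPM in the T-labelled libraries and 1860 ± 110 CPM in A + T. The log2 fold change was -0.15 in T vs. S (95% interval -0.39 to 0.08, adjusted P = 0.330), -0.06 in A + T vs. T (-0.30 to 0.17, adjusted P = 0.769) and -0.22 in A + T vs. S (-0.45 to 0.02, adjusted P = 0.224). In fold, the interval of T vs. S reached from 0.764 to 1.06, so a fall to 0.764 of the sham level remained possible at this spread.

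Ckmt2, the mitochondrial kinase, was the second most abundant of the 4. Its counts were 36690, 42766 and 26633 in S (2028, 2170 and 1926 CPM), 26206, 22305 and 14700 in the T-labelled libraries (1623, 1325 and 1375 CPM), and 26670, 24609 and 24722 in A + T (1649, 1766 and 1522 CPM). All 3 sham hearts were above the other 6, and the T-labelled libraries and A + T overlapped. The means were 2041 ± 123, 1441 ± 159 and 1646 ± 122 CPM in S, T and A + T. Ckmt2 fell in T vs. S, with a log2 fold change of -0.50 (SE 0.11, adjusted P = 0.00786), that is 1.42-fold lower between the fitted group levels, and 3 of 3 libraries were below every S library. Against the T-labelled libraries, A + T differed by a log2 fold change of 0.19 (95% interval -0.04 to 0.42, adjusted P = 0.312), and against S by -0.31 (-0.54 to -0.08, unadjusted P = 0.0139, adjusted P = 0.0953), so neither passed the adjusted test. Without the 4 libraries with over 15% Rn45s, the change in T vs. S was -0.47 and its adjusted P-value 0.0615.

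Ckb, the brain form, had the largest log2 fold change of the 4 in T vs. S. The S libraries held 566, 599 and 422 counts (31.3, 30.4 and 30.5 CPM), the T-labelled libraries 234, 296 and 136 counts (14.5, 17.6 and 12.7 CPM) and the A + T libraries 405, 279 and 295 counts (25.03, 20.02 and 18.17 CPM). After TMM scaling the 3 groups did not overlap, with S on top, A + T between and the T-labelled libraries lowest. With counts scaled by library total alone, T and A + T overlapped. Animal 12 of T (19.05 CPM) was then above animals 21 (18.94 CPM) and 22 (18.12 CPM) of A + T. The means were 30.7 ± 0.486, 14.9 ± 2.46 and 21.1 ± 3.55 CPM. Ckb fell in T vs. S with a log2 fold change of -1.03 (SE 0.14, adjusted P = 0.000907), 2.05-fold lower. A + T exceeded the T-labelled libraries by a log2 fold change of 0.49 (SE 0.14, 95% interval 0.18 to 0.80, unadjusted P = 0.0055), but its adjusted P-value of 0.0688 did not pass. Ckb also fell in A + T vs. S, by 0.54 on the log2 scale (SE 0.14, adjusted P = 0.0368). That last call was lost in 6 of 9 fits that left out a single library (animal 2, 3, 5, 11, 21 or 22, adjusted P up to 0.120). Leaving out the 4 libraries rich in Rn45s left A + T with animal 20 alone (25.03 CPM, the highest of its group), and the change was then -0.28.

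Slc6a8, the creatine transporter, moved the other way. It had 5468, 5605 and 3895 counts in S (302, 284 and 282 CPM), 6787, 6537 and 4394 in the T-labelled libraries (420, 388 and 411 CPM) and 4770, 4103 and 4025 in A + T (295, 294 and 248 CPM). All T-labelled libraries were above all S and all A + T libraries, and S and A + T overlapped. The means were 289 ± 11.2, 407 ± 16.4 and 279 ± 27.0 CPM. Slc6a8 rose in T vs. S with a log2 fold change of 0.49 (SE 0.088, adjusted P = 0.00373), or 1.40-fold. It fell in A + T vs. T with a log2 fold change of -0.54 (SE 0.088, adjusted P = 0.00935), or 1.46-fold lower. Between A + T and S the log2 fold change was -0.05 (95% interval -0.25 to 0.14, adjusted P = 0.747), which corresponds to folds of 0.842 to 1.10. Without animal 11 the adjusted P-value of A + T vs. T was 0.0536. Without the 4 libraries rich in Rn45s, which left A + T with animal 20 alone, the change in A + T vs. T was -0.45. The rise and the fall were both measured against the same 3 T-labelled hearts, so they are not independent of each other.

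**Figure D2:**
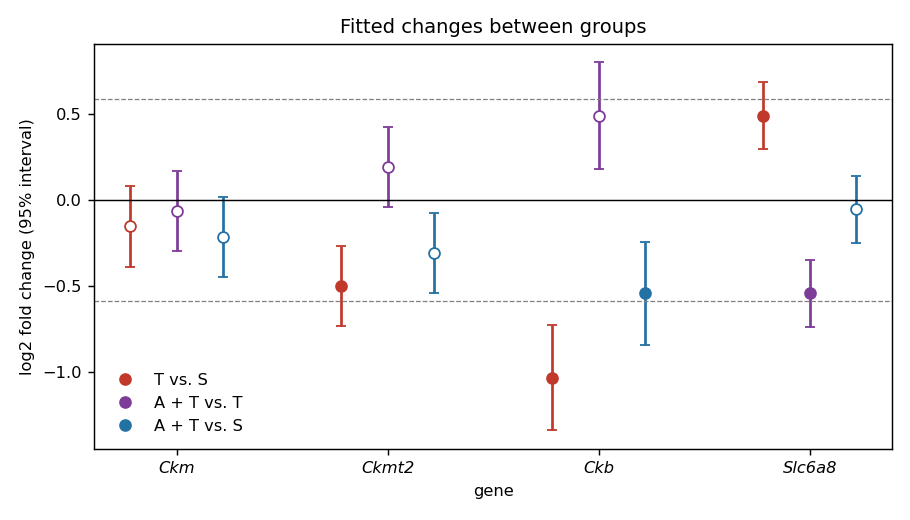
Log2 fold changes of the 4 genes in the 3 comparisons, with 95% intervals from edgeR; filled points have an adjusted P-value under 0.05 and dashed lines mark 1.5-fold. Ckb in T vs. S (-1.03) is the only point beyond a dashed line, and Slc6a8 is the only gene whose filled points lie on both sides of 0 (0.49 and -0.54).

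The make-up of the creatine kinase RNA was described on the per-length levels, summing Ckm, Ckmt2, Ckb and Ckmt1, the ubiquitous mitochondrial form. This sum was 2905 ± 163 in S, 2344 ± 275 in the T-labelled libraries and 2422 ± 124 in A + T. Every S heart was above every other heart, and T and A + T overlapped. Ckm held 52.3 ± 0.344% of the sum in S, 58.3 ± 0.751% in the T-labelled libraries and 53.9 ± 2.15% in A + T, and Ckmt2 held 47.0 ± 0.370%, 41.2 ± 0.635% and 45.4 ± 2.10%. Ckb held 0.716 ± 0.0430%, 0.439 ± 0.107% and 0.591 ± 0.115%, and Ckmt1 held less than 0.1% in every library.

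The ratio of Ckmt2 to Ckm, both genes of the same muscle cells, was lowest in the T-labelled libraries. It was 0.909, 0.903 and 0.884 in S, 0.703, 0.728 and 0.689 in the T-labelled libraries, and 0.904, 0.863 and 0.765 in A + T. All T-labelled libraries were below the lowest of the other groups, while S and A + T overlapped. The means were 0.899 ± 0.0129, 0.707 ± 0.0201 and 0.844 ± 0.0714. A two-sided exact permutation test gave P = 0.1 when T was set against S and when A + T was set against T, which is the smallest value that 3 against 3 can give, and P = 0.3 for A + T vs. S. Over the 33 ratios and shares tested in this way, the adjusted P-value (Benjamini-Hochberg) of a P of 0.1 by exact permutation was 0.206, so none passed. The ratio needs no scaling between libraries, so every alternative scaling gives the same value by construction.

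Set against the summed kinase level, Slc6a8 was 2.63%, 2.31% and 2.54% in S, 3.98%, 4.59% and 4.54% in the T-labelled libraries and 3.15%, 2.87% and 2.62% in A + T. The T-labelled libraries were the highest, with no overlap, and animal 22 of A + T lay within the range of S. The means were 2.49 ± 0.168%, 4.37 ± 0.337% and 2.88 ± 0.264% (two-sided exact permutation test, P = 0.1 for the contrasts of T with S and of A + T with T, P = 0.2 for that of A + T with S). Ckm exceeded Ckb 138 ± 31.0 times in the T-labelled libraries and 93.8 ± 19.1 times in A + T, against the 73.2 times of S. On the log2 scale of the counts, Ckb to Ckm was 0.89 lower in T than in S and Ckb to Ckmt2 was 0.55 lower, both without overlap (exact permutation P = 0.1). Between A + T and T both of these ratios overlapped (exact permutation P = 0.2 for Ckb to Ckm and 0.3 for Ckb to Ckmt2).

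**Figure D3:**
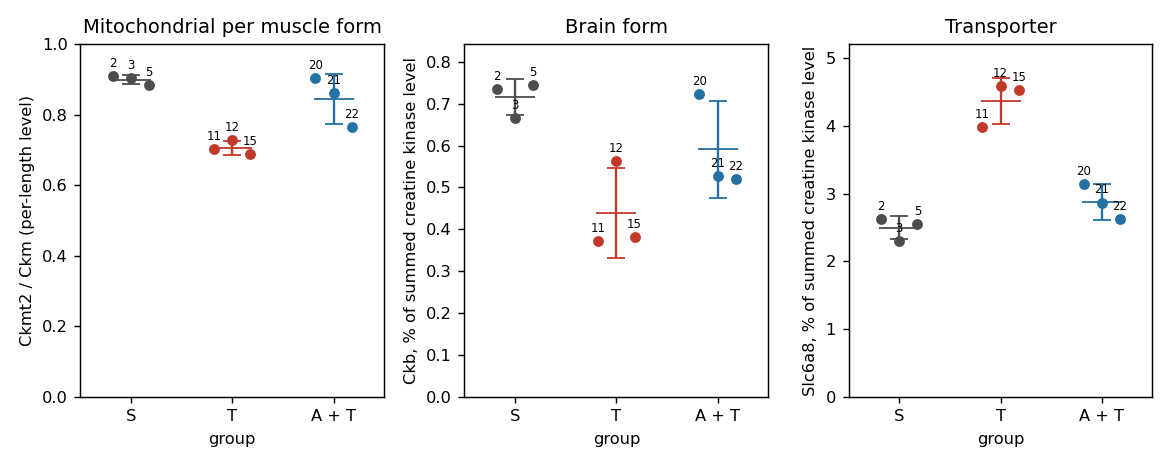
Ratio of Ckmt2 to Ckm, Ckb as a percentage of the summed creatine kinase level, and Slc6a8 as a percentage of the same sum, all on per-length levels, in each heart (animal numbers above the points, bars for mean and SD of 3 animals, axes from 0). The 3 T-labelled libraries lie below all others in the Ckmt2 to Ckm ratio (0.689 to 0.728) and above all others for Slc6a8 (3.98% to 4.59%).

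The start regions of the kinase genes are shown because Ckmt2 and Ckb passed the test downward in T vs. S while Ckm did not. RefSeq windows of 300 bases on GRCm38.p6, from 250 bases before to 50 after the start site, matched 3 of the 4 genes. Ckm lies on chromosome 7 (chr7:19411094-19421583, plus strand), Ckmt2 on chromosome 13 (chr13:91853386-91876923, minus strand), Ckb on chromosome 12 (chr12:111669355-111672338, minus strand) and Slc6a8 on chromosome X (chrX:73673133-73682502). The windows below span chr7:19410844-19411143 for Ckm, chr13:91876836-91877135 for Ckmt2 and chr12:111672289-111672588 for Ckb, written in the direction of transcription. For Ckmt2 the start site of the window lies inside the outer end of the gene, and motif positions count from the start site of the window. Capitals mark E-boxes (CANNTG, the motif bound by myogenic factors of the basic helix-loop-helix class) and, in Ckb, a match to the motif of the MEF2 factors.
Ckm: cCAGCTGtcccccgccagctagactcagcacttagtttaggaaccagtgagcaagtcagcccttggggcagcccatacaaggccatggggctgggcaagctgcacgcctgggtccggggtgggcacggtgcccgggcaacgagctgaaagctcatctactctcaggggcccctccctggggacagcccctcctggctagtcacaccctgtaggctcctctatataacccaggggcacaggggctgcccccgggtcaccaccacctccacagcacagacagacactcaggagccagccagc
Ckmt2: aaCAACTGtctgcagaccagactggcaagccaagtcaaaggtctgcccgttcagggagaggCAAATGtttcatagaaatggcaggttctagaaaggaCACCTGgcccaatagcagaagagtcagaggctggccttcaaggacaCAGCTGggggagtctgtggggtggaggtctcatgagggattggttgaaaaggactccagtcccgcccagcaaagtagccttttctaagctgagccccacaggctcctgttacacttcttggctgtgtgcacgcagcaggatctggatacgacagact
Ckb: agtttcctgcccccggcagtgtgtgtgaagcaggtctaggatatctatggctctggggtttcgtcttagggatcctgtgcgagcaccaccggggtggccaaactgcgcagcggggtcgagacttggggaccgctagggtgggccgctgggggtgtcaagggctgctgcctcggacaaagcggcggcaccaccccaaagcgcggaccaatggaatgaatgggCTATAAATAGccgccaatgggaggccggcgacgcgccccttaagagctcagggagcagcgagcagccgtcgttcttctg
On both strands, the E-box was found 4 times in the Ckmt2 window (starting at -248, -189, -153 and -107 from the start site), 1 time in that of Ckm (at -249) and 0 times in that of Ckb, and 72.3% of 32851 promoters of this length hold it. The MEF2 match in Ckb, at -29, contains the TATA box TATAAA (at -28). A MEF2 match is in 3.19% of promoters and TATAAA in 13.6%. CCAAT was found 2 times in Ckmt2 and 2 times in Ckb and is in 37.4% of promoters. GGGCGG was found 1 time in Ckmt2 (35.7% of promoters). AAGGTCA, the estrogen-related receptor motif (4.72%), the hexamer AGGTCA that it contains (16.3%) and the CArG box (1.63%) were not found in these windows. GC content was 64.7% in Ckm, 63.0% in Ckb and 53.7% in Ckmt2. These matches describe letters in the windows only.

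Among markers of other cell types, the fibroblast and endothelial sums were lower in the T-labelled libraries than in S, as Ckb was. The smooth muscle sum was higher there, although 5 of its 6 markers had a log2 fold change below 0 and only Des rose. The glial and macrophage sums overlapped with S. All 6 fibroblast markers were lower past the test in T vs. S, beside 11% of all genes. Their sum was 1350 to 1553 CPM in S, 813 to 939 CPM in the T-labelled libraries and 1034 to 1509 CPM in A + T. Of 6 endothelial markers, 4 were lower past the test, with sums of 986 to 1197, 713 to 874 and 903 to 1144 CPM. Of 6 smooth muscle markers, 3 were lower (Acta2, Myh11 and Smtn) and 1 was higher (Des, which cardiac muscle also expresses), and their sum was 2241 to 2351, 2954 to 3431 and 1990 to 2405 CPM. Of 6 glial and neuronal markers 4 were analysed, with sums of 12.5 to 14.6, 10.4 to 13.0 and 10.2 to 13.0 CPM, and 1 was lower past the test. Of 10 cardiomyocyte markers, 2 were higher and 1 was lower past the test in T vs. S. Their mean sum was 74709 CPM in S, 66344 CPM in the T-labelled libraries and 67010 CPM in A + T, with overlap between S and T. All 6 macrophage markers were higher past the test in A + T vs. S, beside 4.67% of all genes. Their sums were 280 to 313 CPM in S, 257 to 351 CPM in the T-labelled libraries and 513 to 748 CPM in A + T. No analysed marker was at 0 in every library of a group. Their part in the result of Ckb was not tested.

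**Figure D4:**
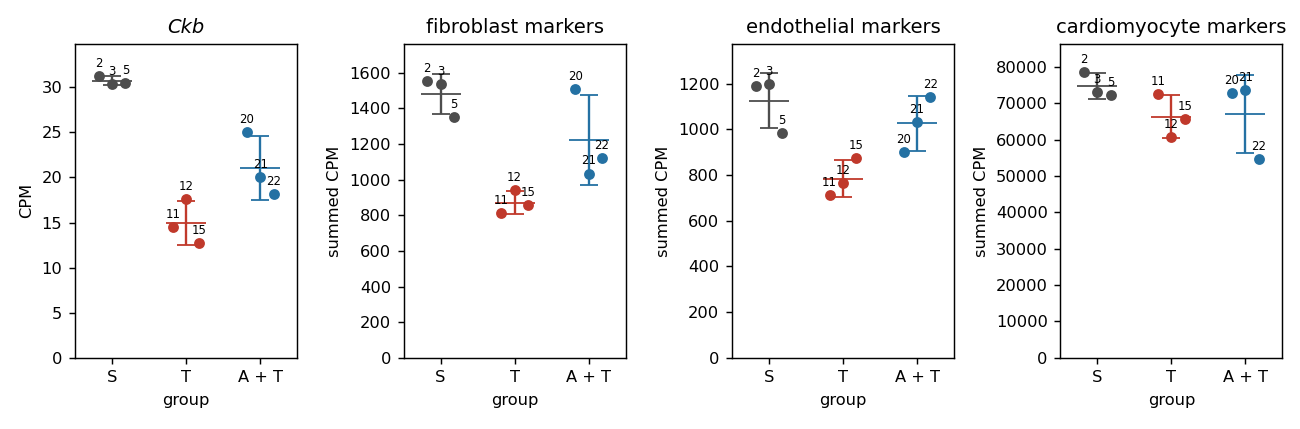
Ckb (CPM) beside the summed CPM of 6 fibroblast, 6 endothelial and 10 cardiomyocyte markers in each heart (animal numbers above the points, bars for mean and SD of 3 animals, axes from 0). Ckb, fibroblast and endothelial sums are all lower in the T-labelled libraries than in S without overlap, and the cardiomyocyte sums of S (72279 to 78702) and T (60734 to 72625) overlap in 1 library.

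The genes that make and release creatine were much less abundant than the transporter. Gatm, which makes the creatine precursor guanidinoacetate, had 5.31, 6.39 and 8.24 CPM in S, 4.09, 4.28 and 3.18 CPM in the T-labelled libraries and 14.4, 8.11 and 6.84 CPM in A + T. The T-labelled libraries were the lowest, and S and A + T overlapped. Gatm rose in A + T vs. T with a log2 fold change of 1.33 (SE 0.29, adjusted P = 0.0270), or 2.52-fold, and this call was lost in 5 of 21 alternative fits (without animal 11, 12, 15 or 20, and with only the groups compared, adjusted P up to 0.0993). In T vs. S its change of -0.77 did not pass (unadjusted P = 0.0232, adjusted P = 0.0849). Gamt, the enzyme that completes creatine, was at 2.56 ± 0.337, 2.11 ± 0.288 and 2.92 ± 0.588 CPM and passed in no comparison. Slc16a12, a creatine carrier of the plasma membrane, had log2 changes of -0.61 in T vs. S (adjusted P = 0.120) and 0.02 in A + T vs. T (adjusted P = 0.944). Ckmt1, a creatine kinase that was listed with these genes, was at 1.83 ± 0.465, 1.04 ± 0.593 and 1.75 ± 1.20 CPM and passed in no comparison. Of these 4 listed genes, Ckmt1 included, none passed in T vs. S, where 21.2% of all genes did, and 2 had an unadjusted P-value under 0.05. The median log2 change of the 4 was -0.68 beside 0.00 over all genes.

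Other enzymes also move phosphate between nucleotides. Of 8 adenylate and nucleoside diphosphate kinases tested, 2 fell and 1 rose in T vs. S. Past the same test, 11% of all genes were lower and 10.3% higher. Ak1, the cytosolic adenylate kinase of muscle, fell by 0.29 on the log2 scale (SE 0.089, adjusted P = 0.0393), and Ak3, the matrix enzyme that uses GTP, fell by 0.35 (SE 0.084, adjusted P = 0.0143). Nme2, a nucleoside diphosphate kinase, rose by 0.34 (SE 0.11, adjusted P = 0.0442). Of 21 alternative fits, which changed the tool, scaling, filter or libraries, 11 lost the call of Ak1 (adjusted P up to 0.185), 5 that of Ak3 (up to 0.118) and 10 that of Nme2 (up to 0.224). None passed in A + T vs. T, where 0 had an unadjusted P-value under 0.05, and Ak3 was again lower in A + T vs. S (-0.31, adjusted P = 0.0468, lost in 15 of 21 alternatives, with values up to 0.350). The medians of this list were -0.08 in T vs. S and 0.10 in A + T vs. T.

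Carriers and contact proteins (adenine nucleotide and phosphate carriers, porins and cristae proteins) work with mitochondrial creatine kinase. In T vs. S, 0 of 9 passed the test by edgeR, beside 21.2% of all genes, although 3 had an unadjusted P-value under 0.05. The log2 changes of the 9 ran from -0.22 to 0.27, with a median of 0.01, beside the -0.50 of Ckmt2. A + T vs. T gave 0 of 9 past the test (1 by unadjusted P-value), beside 5.88% of all genes. A + T vs. S gave 1 of 9, beside 8.31% of all genes. It was a fall of Slc25a5, an adenine nucleotide carrier (-0.38, SE 0.099, adjusted P = 0.0413, lost in 9 of 21 alternatives, with values up to 0.314).

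Of 9 genes of the sarcomere and the ion pumps, where the cytosolic enzyme feeds ATP, 2 rose in T vs. S. Past the test, 10.3% of all genes were higher. Myh7, the slow myosin heavy chain of the fetal heart, rose by 3.16 on the log2 scale (SE 0.12, adjusted P = 7.49e-07). Myom2, an M-line protein of the band where Ckm binds, rose by 0.54 (SE 0.11, adjusted P = 0.00822). Both fell in A + T vs. T, Myh7 by 2.33 (adjusted P = 1.19e-05) and Myom2 by 0.54 (adjusted P = 0.0264). The call of Myh7 passed in 21 of 21 alternatives, and that of Myom2 was lost in 7 of 21 (adjusted P up to 0.175), among them the fits without animal 3, 11, 15 or 20. Compared with S, A + T had Myh7 higher (0.83, adjusted P = 0.00353). Ttn and Atp2a2, the calcium pump of the sarcoplasmic reticulum, passed in no comparison.

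Among 12 regulators of energy metabolism and muscle genes, 1 rose and 1 fell in T vs. S. Past the same test, 10.3% of all genes were higher and 11% lower. Ppargc1a, a coactivator of mitochondrial genes, had 157, 189 and 206 CPM in S, 375, 213 and 370 CPM in the T-labelled libraries and 191, 177 and 118 CPM in A + T. The T-labelled libraries were all above the others, animal 12 by the least. Ppargc1a rose in T vs. S (0.79, SE 0.23, adjusted P = 0.0325) and fell in A + T vs. T (-0.97, SE 0.23, adjusted P = 0.0367). The rise was lost in 6 of 21 alternatives (adjusted P up to 0.119), among them those without animal 2, 3, 5, 11 or 15. The fall was lost in 9 of 21, among them those without animal 2, 3, 5, 11, 15, 20 or 21 (adjusted P up to 0.143). Without the 4 libraries rich in Rn45s, which left A + T with animal 20 alone, the change in A + T vs. T was -0.61. Tfam, which maintains mitochondrial DNA, fell in T vs. S (-0.23, SE 0.068, adjusted P = 0.0357), a call lost in 13 of 21 alternatives (adjusted P up to 0.457). The estrogen-related receptors Esrra, Esrrb and Esrrg, the factors Mef2a, Mef2c and Mef2d and the AMP-activated kinase subunits Prkaa1 and Prkaa2 passed in no comparison. Of the 4 tested relatives of Slc6a8 in the same carrier family, none passed in any comparison by edgeR, and 1 had an unadjusted P-value under 0.05 in T vs. S, 2 in A + T vs. T and 0 in A + T vs. S. Slc6a6, the taurine transporter, was at a log2 change of 0.36 in T vs. S (adjusted P = 0.143) and -0.48 in A + T vs. T (adjusted P = 0.118).

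**Figure D5:**
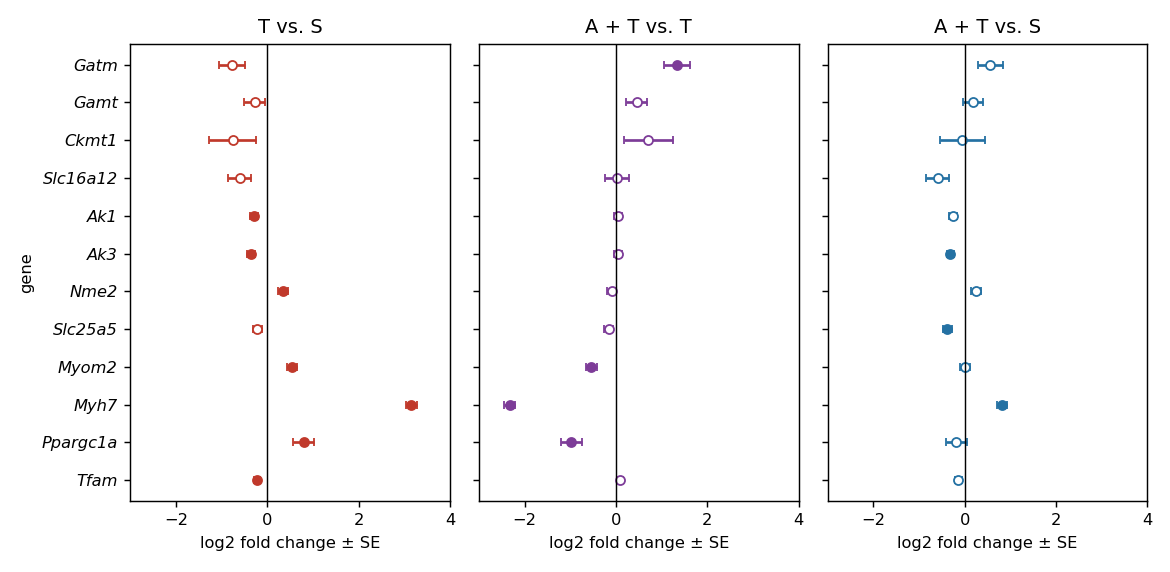
Log2 fold change ± SE of 12 genes of creatine synthesis, phosphate transfer, the sarcomere and their regulators, with 1 panel for each of the 3 comparisons; filled points have an adjusted P-value under 0.05. Myh7 has the largest change in T vs. S (3.16) and in A + T vs. T (-2.33). Among Gatm, Gamt, Slc16a12 and Ckmt1, only Gatm has a filled point (1.33 in A + T vs. T).

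The genes with the most similar pattern were ranked by Pearson's r of log2 CPM over the 9 libraries, among 8570 genes with a mean of at least 10 CPM. For Ckm they were Nelfa (0.953), Mrpl38 (0.925), Chchd10 (0.922) and Acat1 (0.921). For Ckmt2 they were Tfam (0.980), Pdhb (0.978), Cdc42ep2 (0.977) and Uqcrfs1 (0.972). For Ckb they were Hus1 (0.983), Itgbl1 (0.980) and Gdpd5 (0.973), and for Slc6a8 1700025G04Rik (0.979), Phka1 (0.977), Actn2 (0.976) and Picalm (0.975). The 9 points share 3 groups and their libraries' depth, so these values describe likeness over these hearts and carry no test.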

How the data were processed

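The data were heart RNA counts of 9 mice in 3 groups (S, T and A + T). The authors used STAR for alignment to mm10 and assigned uniquely mapped reads to RefSeq genes with featureCounts, using strand and a mapping quality limit. The deposited table holds counts per gene without normalization, with 12392222 to 19732471 per library. The authors also deposited log2 values, which differed from log2 CPM by a constant per gene, as for length scaling (median SD of the difference 0.00268 over 12254 genes). In each table, rows without a gene name (3443) were left out. The submitters' processing notes also name FastQC and edgeR, without role. Versions, and which tool gave the study's fold changes, are not given in the sources used here.

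Genes under 0.5 CPM in more than 4 of 9 libraries were removed. All 9 libraries were fitted with edgeR 4.0.16 (R 4.3.3) by the quasi-likelihood test after TMM scaling, P-values were adjusted over all 13364 genes (Benjamini-Hochberg), and the steps were tested on simulated data. Prior count was 2 for log2 CPM. Ratios were compared by exact permutation with scipy 1.17.1. Alternatives were edgeR's likelihood ratio test, DESeq2 1.42.0, limma 3.58.1 (voom and on the deposited log2 values), other scalings, other filters, only the groups compared, Rn45s left out and each library left out. Leaving out 4 libraries rich in Rn45s was chosen after seeing the data and is counted among the 21 alternatives. It left A + T with animal 20 alone, so its comparisons with A + T rest on a single heart of that group. The 4 genes and all lists were chosen with earlier results of these data known. The genes named were the 4, the listed genes past the adjusted test in any comparison, the creatine synthesis and efflux genes with Ckmt1, and the 4 genes most like each member. A few genes that this rule names are not reported here. Marker genes and genes that did not pass were also named after their values were seen. Each library was a different animal by its label, and intervals and counting errors cover no other error. Figures were drawn with matplotlib 3.10.9 in Python 3.11.15.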

Additional observations from a re-analysis of the deposited data

How the results depend on the processing

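Over 252 refits of the 12 log2 fold changes of Ckm, Ckmt2, Ckb and Slc6a8, 234 kept the side of the threshold, 13 lost the call, 5 gained it and 0 of the called values reversed. In T vs. S, Ckb and Slc6a8 passed in 21 of 21 alternatives (-1.17 to -0.92 and 0.45 to 0.56) and Ckmt2 in 20 of 21 (-0.60 to -0.43), failing without the 4 libraries with over 15% Rn45s (-0.47, adjusted P = 0.0615). The number of the 4 genes past the adjusted P-value in A + T vs. T was 2 with DESeq2 and 2 with edgeR's likelihood ratio test, 0 with library size only, and 0 to 2 with each animal left out. In A + T vs. S it was 2 with DESeq2, 0 with library size only, 0 scaled to the cardiomyocyte genes, and 0 to 1 with each animal left out. Under DESeq2, Ckmt2 passed in A + T vs. S (-0.31, adjusted P = 0.0326) and Ckb in A + T vs. T (0.48, adjusted P = 0.0368), as Ckb did with the likelihood ratio test (0.49, adjusted P = 0.0298) and in 2 of 9 fits without 1 animal (0.35 to 0.63). Ckb in A + T vs. S did not pass with library size only (-0.55, adjusted P = 0.123) or scaled to the cardiomyocyte genes (-0.43, adjusted P = 0.178), and without 1 animal it was -0.69 to -0.44. Without the 4 libraries, which left A + T with animal 20 alone, Ckb was at -0.28 in A + T vs. S. Slc6a8 in A + T vs. T did not pass with library size only (-0.52, adjusted P = 0.0563), and without 1 animal it was -0.58 to -0.47. Without the 4 libraries, again with animal 20 alone in A + T, Slc6a8 was at -0.45 in A + T vs. T. The cause of these changes was not tested, although leaving out libraries leaves fewer samples. Over all genes, calls in T vs. S numbered 2837 and, by alternative, 1464 (cardiomyocyte genes), 1637 (library size only), with 1765 to 3786 when an animal was left out (lowest without animal 11). Those in A + T vs. T numbered 786 and, by alternative, 217 (only the groups compared), 230 (cardiomyocyte genes), 438 (library size only), 1200 (DESeq2) and 1195 (likelihood ratio test), with 130 (without animal 11) to 1006 (without animal 22) when an animal was left out. Those in A + T vs. S numbered 1110 against 459 (cardiomyocyte genes) and 555 (library size only), with 269 (without animal 2) to 1086 when an animal was left out. Scaling to the cardiomyocyte genes moved the median log2 change of all genes in A + T vs. S to 0.13. No paired analysis was possible because the animal numbers are not shared between groups.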
